A study of Mus musculus with 24 samples.

Results

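Spsb4, Rnf144a, Vash2, Epha2, Ankrd6, Smtnl2 and Sptbn1 are 7 genes whose ratios were high in some or all of the mouse leukaemias here that lack Blnk. They were picked by symbol for higher values in the leukaemias of Blnk knockout mice, without or with a LAP transgene, than in the precursor B-cell leukaemias of LAP transgenic mice with Blnk intact. All 15 of their probe sets among the 45141 on the array were read, and the 7 genes are among 17097 genes tested. Because those tumour values chose the genes, the differences from LAP preB-ALL are given below as a description, with no test. No threshold was stated for the choice, so no genes just outside it are given. The cell-line arrays had no part in the choice.

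The study measured 24 samples on an Affymetrix array from total RNA. The line BKO408 comes from a precursor B-cell leukaemia (preB-ALL, where ALL stands for acute lymphoblastic leukaemia) that arose in a mouse without Blnk, and it was cultured with 5 ng/ml IL-7 and 10% serum. There were 4 arrays of the line as it is and 4 after a retrovirus brought in LAP, the C/EBPβ isoform that activates transcription and is made from Cebpb. All 8 arrays are of the same line and stand for 1 leukaemia. Of the 16 primary tumours, 5 were preB-ALL from mice homozygous for the Blnk knockout and are called Blnk tumours, and 3 were preB-ALL from knockouts that also carried the LAP transgene, called LAP/Blnk tumours. Transgenic mice with intact Blnk gave the other 8, of which 4 are labelled LAP preB-ALL and 4 LAP B-ALL. Among the tumours LAP is missing from the Blnk tumours alone, so no tumour has both Blnk and no LAP. The sources used here do not give the transgene's promoter, the ages and strain of the mice, the tissue sampled or how the BKO408 cells without LAP were handled. The labels do not say that cell-line replicates were separate cultures or that each tumour came from its own mouse, so the spread behind each p-value is that of these samples and may be technical. Each value is a log2 ratio of a probe set to its median over the 8 cell-line arrays or over the 16 tumours. Such a ratio is not a level, so the genes cannot be ranked by abundance, no gene can be called absent, and cells cannot be set against tumours.

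Blnk is an adaptor that couples the pre-B-cell receptor to signals for differentiation, and mice without it can develop preB-ALL. C/EBPβ is a transcription factor of myeloid and B-lineage cells that binds DNA as a dimer. The 7 genes belong to no single pathway. Spsb4 and Rnf144a serve the ubiquitin system. Spsb4 has a SPRY domain that binds substrates and a SOCS box that joins Cullin-RING ligases, and Rnf144a is an E3 ligase of the RING-between-RING (RBR) type. Vash2 is a tubulin carboxypeptidase that works with Svbp and removes the last tyrosine of α-tubulin. Epha2 is a receptor tyrosine kinase for ephrin-A ligands. Ankrd6, also called diversin, is an ankyrin repeat protein of Wnt and planar polarity signalling. Smtnl2 is a smoothelin-like protein, and Sptbn1 is the non-erythroid β-spectrin under the plasma membrane.

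The sequences at the starts of 3 of these genes are shown because these genes were lower in BKO408 cells with LAP, which is a DNA-binding factor. RefSeq windows from 250 bases before to 50 bases after the start, in build GRCm38.p6, matched all 7 genes with 11 windows. They were searched on both strands for TTGCNNAA (C/EBP), the EBF palindrome, CANNTG (E-box) and TGANTCA (AP-1), which 10.8%, 0.904%, 72.3% and 7.81% of all 32851 windows hold. Each sequence is on the gene's strand and capitals mark a match.
Spsb4, chr9:97018306-97018605, minus strand: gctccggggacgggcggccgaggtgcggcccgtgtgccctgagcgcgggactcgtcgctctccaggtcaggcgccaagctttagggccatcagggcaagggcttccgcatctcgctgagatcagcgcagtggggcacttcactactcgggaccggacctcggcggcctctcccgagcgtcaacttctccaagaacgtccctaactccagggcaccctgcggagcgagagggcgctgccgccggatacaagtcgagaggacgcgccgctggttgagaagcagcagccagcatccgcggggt
Epha2, chr4:141300971-141301270, plus strand: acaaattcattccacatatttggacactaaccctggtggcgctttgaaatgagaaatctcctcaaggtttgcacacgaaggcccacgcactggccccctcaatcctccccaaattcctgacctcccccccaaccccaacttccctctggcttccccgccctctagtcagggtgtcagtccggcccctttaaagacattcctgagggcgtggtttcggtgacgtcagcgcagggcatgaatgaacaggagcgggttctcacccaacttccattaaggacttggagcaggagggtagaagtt
Ankrd6, chr4:32923456-32923755, minus strand: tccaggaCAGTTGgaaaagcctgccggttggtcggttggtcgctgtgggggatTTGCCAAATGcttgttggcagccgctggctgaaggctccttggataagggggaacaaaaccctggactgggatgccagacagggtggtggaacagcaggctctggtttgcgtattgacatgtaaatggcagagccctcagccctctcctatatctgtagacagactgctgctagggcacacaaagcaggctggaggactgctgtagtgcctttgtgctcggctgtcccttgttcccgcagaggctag
The Spsb4 and Epha2 windows held none of the 4 motifs. The Ankrd6 window shown is 1 of 3 for this gene and was the only 1 of the 11 windows with a C/EBP match, which overlaps an E-box match in the second run of capitals. The Spsb4 window held 32 CpG dinucleotides, more than 90.5% of all windows, where the median of all windows is 7. The Epha2 window held 10 and the Ankrd6 window shown held 7. Of the windows not shown, 1 of Ankrd6 held 36 and 1 of Vash2 held 33, both more than Spsb4. The remaining windows held 2 to 25. Of the other genes, Vash2 had an AP-1 match in 1 of 2 windows, Rnf144a, Sptbn1 and Vash2 had E-box matches, and Smtnl2 had none of the motifs. A match is a run of letters and not a measured binding site, and no binding was measured.

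The labels and the makeup of the samples were checked first. The Cebpb probe set with the largest spread was at -4.50 to -1.94 in Blnk tumours and at -1.41 to 0.90 in 11 of the 12 tumours labelled with LAP, and the library labelled LAP B-ALL 4 was at -3.11, inside the span of the Blnk tumours, which carry no LAP transgene. The other 2 Cebpb probe sets overlapped between tumours with and without LAP. In the BKO408 line the first Cebpb probe set was at -0.14 to 0.01 without and at -0.01 to 0.24 with LAP, and all 3 overlapped, so the retroviral LAP is not seen at Cebpb and those groups rest on the labels. Whether the probe sets match the LAP insert is not stated. The Blnk probe set overlapped between the 8 Blnk knockout tumours (-0.68 to 1.23) and the others (-0.53 to 1.45). Whether it lies outside the deleted part is not given, so it checks nothing. The median of 11 measured pre-B markers ran from -0.15 to 0.29 among Blnk tumours and from 0.35 to 0.55 among LAP/Blnk tumours, against -3.81 to -0.27 among LAP preB-ALL and -2.97 to 0.54 among LAP B-ALL. The median of 8 erythroid markers was 5.77 in LAP preB-ALL 4 and 5.41 to 6.55 in LAP B-ALL 1, 2 and 3, against -0.62 to 0.80 in the other 12 tumours. The median of 9 mature B-cell markers was 3.33 in LAP preB-ALL 2, 1.94 in LAP preB-ALL 4 and 2.34 to 3.06 in LAP B-ALL 1, 2 and 3, against -1.14 to 1.12 in the 8 Blnk knockout tumours and -0.40 to 0.32 in the other 3. The pre-B median thus set all Blnk knockout tumours apart from all LAP preB-ALL. The erythroid and mature B-cell medians were high in only some of the LAP preB-ALL. The part of these markers in the values below was not tested. Blnk tumour 5 had the highest value of its group for markers of endothelium and stroma, at 1.45. The median of 8 granulocyte markers was 2.45 to 3.12 among LAP B-ALL. It ran from -0.99 to 3.51 among Blnk tumours, from -1.08 to 3.39 among LAP preB-ALL and from -1.41 to 1.51 among LAP/Blnk tumours. The median of 5 epithelial markers reached 3.60 among Blnk tumours and 3.67 among LAP preB-ALL, against at most 0.01 among LAP/Blnk tumours and 0.09 among LAP B-ALL. The part of these was not tested either. In such bulk samples fewer cells of a type and less RNA per cell cannot be told apart.

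**Figure D1:**
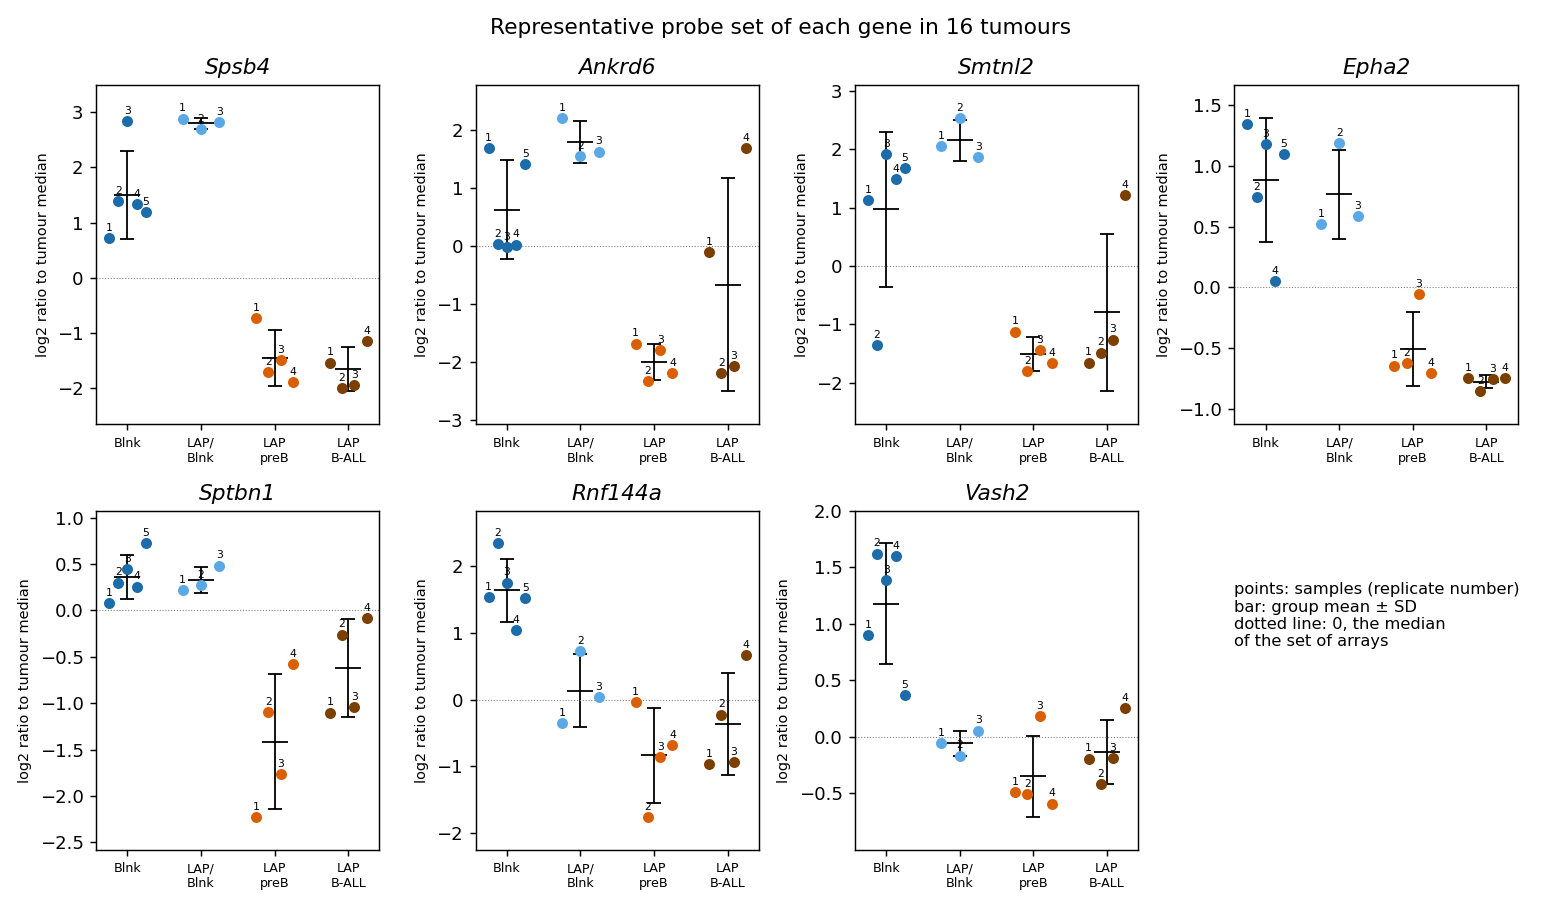
Log2 ratio to the tumour median (y axis) of the representative probe set of each gene in the 4 tumour groups (x axis), with 1 numbered point per tumour and bars for the group mean ± SD. Spsb4, Epha2 and Sptbn1 have all 8 Blnk knockout tumours above all 8 tumours with Blnk intact, and tumour 4 of LAP B-ALL lies high for Ankrd6 (1.70) and Smtnl2 (1.22).

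Spsb4 set the 8 tumours without Blnk apart from the 8 with Blnk by the widest gap of the 7 genes. Its representative probe set, the one of 2 with the larger spread, read 0.72, 1.38, 2.84, 1.33 and 1.19 across the Blnk tumours, in the order of their numbers, and 2.88, 2.68 and 2.82 across the LAP/Blnk tumours. The LAP preB-ALL read -0.72, -1.70, -1.48 and -1.89 and the LAP B-ALL -1.53, -2.00, -1.94 and -1.15. The lowest Blnk knockout tumour and the highest other tumour lie equally far from 0 because the ratios are centred on the median of 16 tumours. Group means were 2.79 ± 0.10 (SD, n = 3) in LAP/Blnk tumours, 1.49 ± 0.79 (n = 5) in Blnk tumours, -1.45 ± 0.51 (n = 4) in LAP preB-ALL and -1.65 ± 0.40 (n = 4) in LAP B-ALL. In that order the LAP/Blnk and Blnk tumours overlapped, since Blnk tumour 3 lay within the LAP/Blnk range, and LAP preB-ALL and LAP B-ALL overlapped, while the step between Blnk tumours and LAP preB-ALL did not. As a description, the difference from LAP preB-ALL was 4.24 ± 0.41 (SE) for LAP/Blnk tumours and 2.94 ± 0.36 for Blnk tumours. Without LAP preB-ALL 4, the tumour with high erythroid markers, these differences were 4.10 ± 0.43 and 2.79 ± 0.39, and without LAP preB-ALL 2, the one with the highest mature B-cell markers, 4.16 ± 0.44 and 2.86 ± 0.40. The second probe set followed the first with r = 0.965 over the 16 tumours, over a range of 3.17 against 4.88, and it too had all 8 knockout tumours above the other 8.

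Epha2, the ephrin-A receptor, was split in the same way but over a narrower range. The Blnk tumours read 1.34, 0.74, 1.18, 0.05 and 1.10 and the LAP/Blnk tumours 0.52, 1.19 and 0.59. With Blnk intact, the LAP preB-ALL read -0.64, -0.63, -0.05 and -0.71 and the LAP B-ALL -0.75, -0.86, -0.76 and -0.75. Blnk tumour 4 and LAP preB-ALL 3 were the middle pair, close to 0 on either side. The 4 LAP B-ALL were the tightest group, at -0.78 ± 0.05 (SD, n = 4), and all lay below all LAP preB-ALL. Differences from LAP preB-ALL were 1.39 ± 0.23 (SE) in Blnk tumours and 1.27 ± 0.27 in LAP/Blnk tumours.

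Sptbn1, the β-spectrin, varied less among the Blnk knockout tumours than among the others in its representative probe set, 1 of 6. By its representative probe set the Blnk tumours read 0.08, 0.30, 0.45, 0.26 and 0.72 and the LAP/Blnk tumours 0.22, 0.27 and 0.48. Values were -2.23, -1.10, -1.76 and -0.58 across the LAP preB-ALL and -1.10, -0.26, -1.04 and -0.08 across the LAP B-ALL. The mean was -1.42 ± 0.73 (SD, n = 4) in LAP preB-ALL and -1.70 ± 0.57 (n = 3) without LAP preB-ALL 4. Differences from LAP preB-ALL were 1.78 ± 0.30 (SE) in Blnk tumours and 1.74 ± 0.34 in LAP/Blnk tumours. Of the 5 other probe sets of Sptbn1, 3 followed the representative with r of 0.861 to 0.957. The other 2 had r of 0.378 and 0.38 and spanned only 0.514 and 0.729 over the tumours, and knockout and LAP preB-ALL tumours overlapped in them. All 8 knockout tumours lay above all LAP preB-ALL in 4 of the 6 probe sets, and above all 8 other tumours in 2 of 6. The wide spread of the LAP preB-ALL was not shared by all 4 either, since their SD ran from 0.05 to 0.73.

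Ankrd6 and Smtnl2 were high in every LAP/Blnk tumour and mixed among the Blnk tumours. For Ankrd6, the diversin gene, the LAP/Blnk tumours read 2.22, 1.55 and 1.63, the Blnk tumours 1.70, 0.03, -0.02, 0.02 and 1.42, and the LAP preB-ALL -1.68, -2.33, -1.80 and -2.19. Blnk tumours 2, 3 and 4 lay near the tumour median, below every LAP/Blnk tumour, and all 8 knockout tumours were above all LAP preB-ALL in this probe set. In each of the other 2 probe sets of Ankrd6, Blnk tumour 3 lay below 1 LAP preB-ALL. For Smtnl2 the LAP/Blnk tumours read 2.06, 2.54 and 1.87, the Blnk tumours 1.13, -1.36, 1.92, 1.49 and 1.68, and the LAP preB-ALL -1.13, -1.80, -1.45 and -1.67. Blnk tumour 2 alone lay within the range of LAP preB-ALL for Smtnl2. Differences from LAP preB-ALL were 3.80 ± 0.76 (SE) for Ankrd6 and 3.67 ± 0.75 for Smtnl2 for LAP/Blnk tumours. The Blnk tumours differed from them by 2.63 ± 0.67 and 2.48 ± 0.66. The other 2 probe sets of Ankrd6 had r of 0.924 and 0.83 with the representative and narrower ranges, of 3.28 and 1.32 against 4.55. Taking the mean of the 3 probe sets lowered the Ankrd6 differences to 2.26 in LAP/Blnk and 1.34 in Blnk tumours, and the mean of the 6 Sptbn1 probe sets gave 0.81 in both groups.

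Rnf144a and Vash2 were high in the Blnk tumours and not in the LAP/Blnk tumours. For Rnf144a, the RBR ligase, the Blnk tumours read 1.54, 2.34, 1.75, 1.04 and 1.52 and the LAP/Blnk tumours -0.35, 0.73 and 0.04. The LAP preB-ALL read -0.04, -1.76, -0.87 and -0.68 and the LAP B-ALL -0.97, -0.22, -0.93 and 0.66. Every Blnk tumour lay above all 11 other tumours, and the other 3 groups overlapped. For Vash2, the tubulin carboxypeptidase, the Blnk tumours read 0.90, 1.62, 1.39, 1.60 and 0.37 and the LAP/Blnk tumours -0.06, -0.17 and 0.06. Values were -0.49, -0.50, 0.18 and -0.59 across the LAP preB-ALL and -0.19, -0.42, -0.19 and 0.26 across the LAP B-ALL. Here too each Blnk tumour lay above the other 11, with Blnk tumour 5 the lowest of the 5. Differences of Blnk tumours from LAP preB-ALL were 2.47 ± 0.40 (SE) for Rnf144a and 1.53 ± 0.25 for Vash2, and those of LAP/Blnk tumours were 0.97 ± 0.45 and 0.29 ± 0.28.

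By the representative probe sets, 346 of 17097 (2.02%) had all 8 Blnk knockout tumours above all LAP preB-ALL, and 4 of the 7 genes did: Spsb4, Epha2, Ankrd6 and Sptbn1. All 8 Blnk knockout tumours lay above all 8 others for 108 genes (0.632%), and for Spsb4, Epha2 and Sptbn1. Since the 7 genes were picked for such values, nothing is read from these counts.

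**Figure D2:**
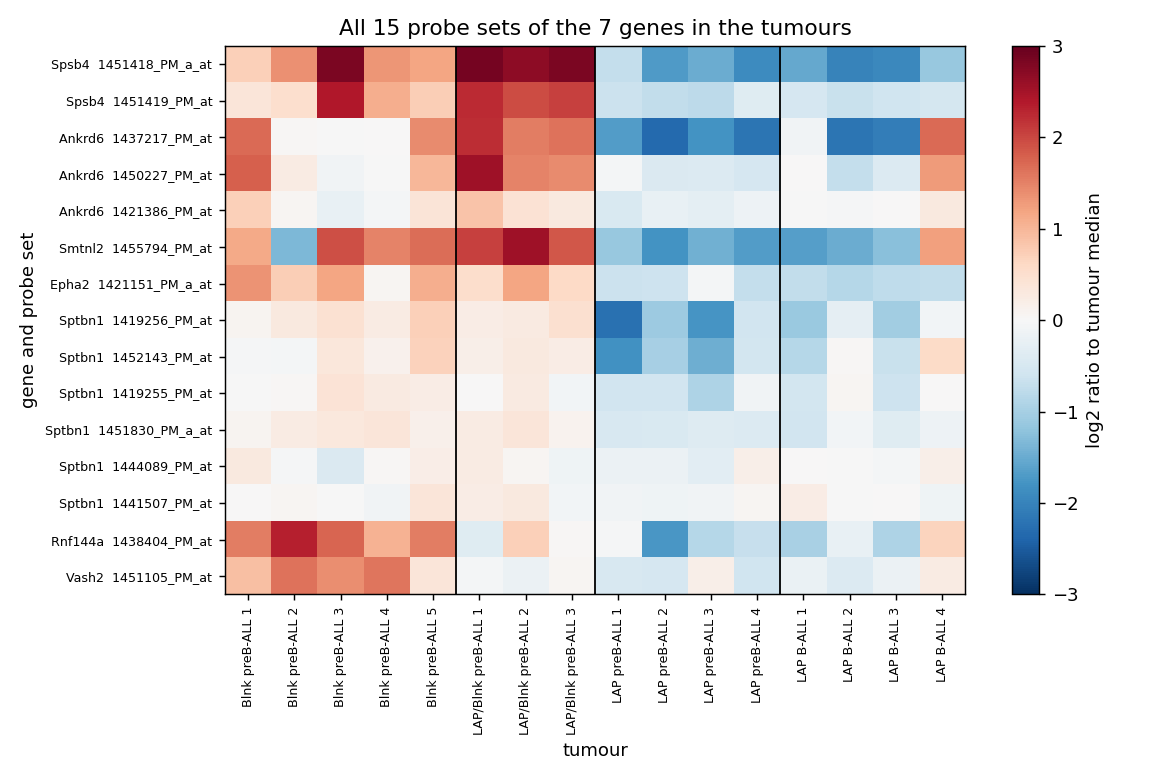
Log2 ratio to the tumour median (colour, from -3 in blue to 3 in red) of all 15 probe sets of the 7 genes (y axis) in the 16 tumours (x axis), with black lines between the groups. The probe sets of Spsb4 are red in all 8 Blnk knockout tumours, and the last 2 of the 6 for Sptbn1 stay pale throughout.

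LAP B-ALL had no part in the choice of the genes, and its 4 tumours did not all look like LAP preB-ALL. All 4 lay below all Blnk knockout tumours for Spsb4, Epha2 and Sptbn1. LAP B-ALL 4 was at 1.70 for Ankrd6, against -0.10, -2.19 and -2.07 in LAP B-ALL 1 to 3, and at 1.22 for Smtnl2, against -1.66, -1.49 and -1.26. It was also the highest of the group for Rnf144a (0.66), Vash2 (0.26), Spsb4 (-1.15) and Sptbn1 (-0.08). In the same tumour Spsb4, Sptbn1 and Epha2 (-0.75) still lay below all Blnk knockout tumours. This is the tumour whose Cebpb lay in the range of tumours without LAP, and its pre-B marker median was 0.54, next to -1.87, -1.85 and -2.97 in the other 3. Without it, the LAP B-ALL mean went from -0.66 to -1.45 for Ankrd6, from -0.80 to -1.47 for Smtnl2, from -0.36 to -0.71 for Rnf144a and from -1.65 to -1.82 for Spsb4. The part of marker content in these values was not tested.

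The effect of LAP within 1 leukaemia was read in the BKO408 line, which lacks Blnk. Spsb4, Ankrd6 and Epha2 fell in the cells with LAP. Spsb4 was at 0.45, 0.32, 0.38 and 0.39 in the 4 arrays without and at -0.50, -0.32, -0.56 and -0.44 in the 4 with LAP, a fall of 1.79-fold. The log2 difference was -0.84 ± 0.05 (SE) with an adjusted p of 4.4e-06 (limma, Benjamini-Hochberg over all genes), and the second probe set gave -0.54 ± 0.05 (adjusted p = 5.9e-05 over all probe sets). Ankrd6 was at 0.21, 0.30, 0.25 and 0.20 without and at -0.33, -0.29, -0.20 and -0.21 with LAP, a fall of 1.42-fold (log2 difference -0.50 ± 0.04, limma adjusted p = 1.6e-05). Its other probe sets gave -0.28 ± 0.07 (adjusted p = 0.016) and -0.11 ± 0.06 (adjusted p = 0.29). Epha2 was at 0.11, 0.10, 0.38 and 0.26 without and at -0.10, -0.14, -0.10 and -0.15 with LAP, a fall of 1.26-fold (log2 difference -0.33 ± 0.06, limma adjusted p = 0.0032). For all 3 genes every array with LAP lay below every array without it, as for 14.4% of all genes (26.8% lay apart in either direction).

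The other 4 genes had smaller differences in the cells, and none passed the test. Rnf144a was at 0.04, 0.04, -0.02 and 0.10 without and at 0.02, -0.12, -0.14 and -0.14 with LAP, a difference of -0.13 ± 0.04 (limma adjusted p = 0.063). Without LAP array 1, which lay apart from the other 3, the Rnf144a difference was -0.17 with an adjusted p of 0.012. Without any other single array the limma adjusted p was 0.052 to 0.15, and Rnf144a was called in only 2 of 17 alternative settings. Vash2 differed by 0.16 ± 0.06 (adjusted p = 0.091), Sptbn1 by -0.09 ± 0.07 (adjusted p = 0.40) and Smtnl2 by 0.02 ± 0.04 (adjusted p = 0.72). Smtnl2 spanned only -0.07 to 0.06 over the 8 arrays. Of all 17097 genes, 22.3% were called between these cells, 10.5% higher and 11.8% lower with LAP, so 3 of 7 lower is to be read against a frequent change. The median difference was -0.13 over the 7 genes and -0.01 over all genes. In the same cells the pre-B marker median was 0.07 to 0.19 without and -0.07 to -0.01 with LAP, with 5 of 11 markers lower and 1 higher, and its part in these falls was not tested. With all 24 arrays in 1 fit, which takes its error mostly from the tumours, none of the 3 calls remained (adjusted p = 1.0).

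**Figure D3:**
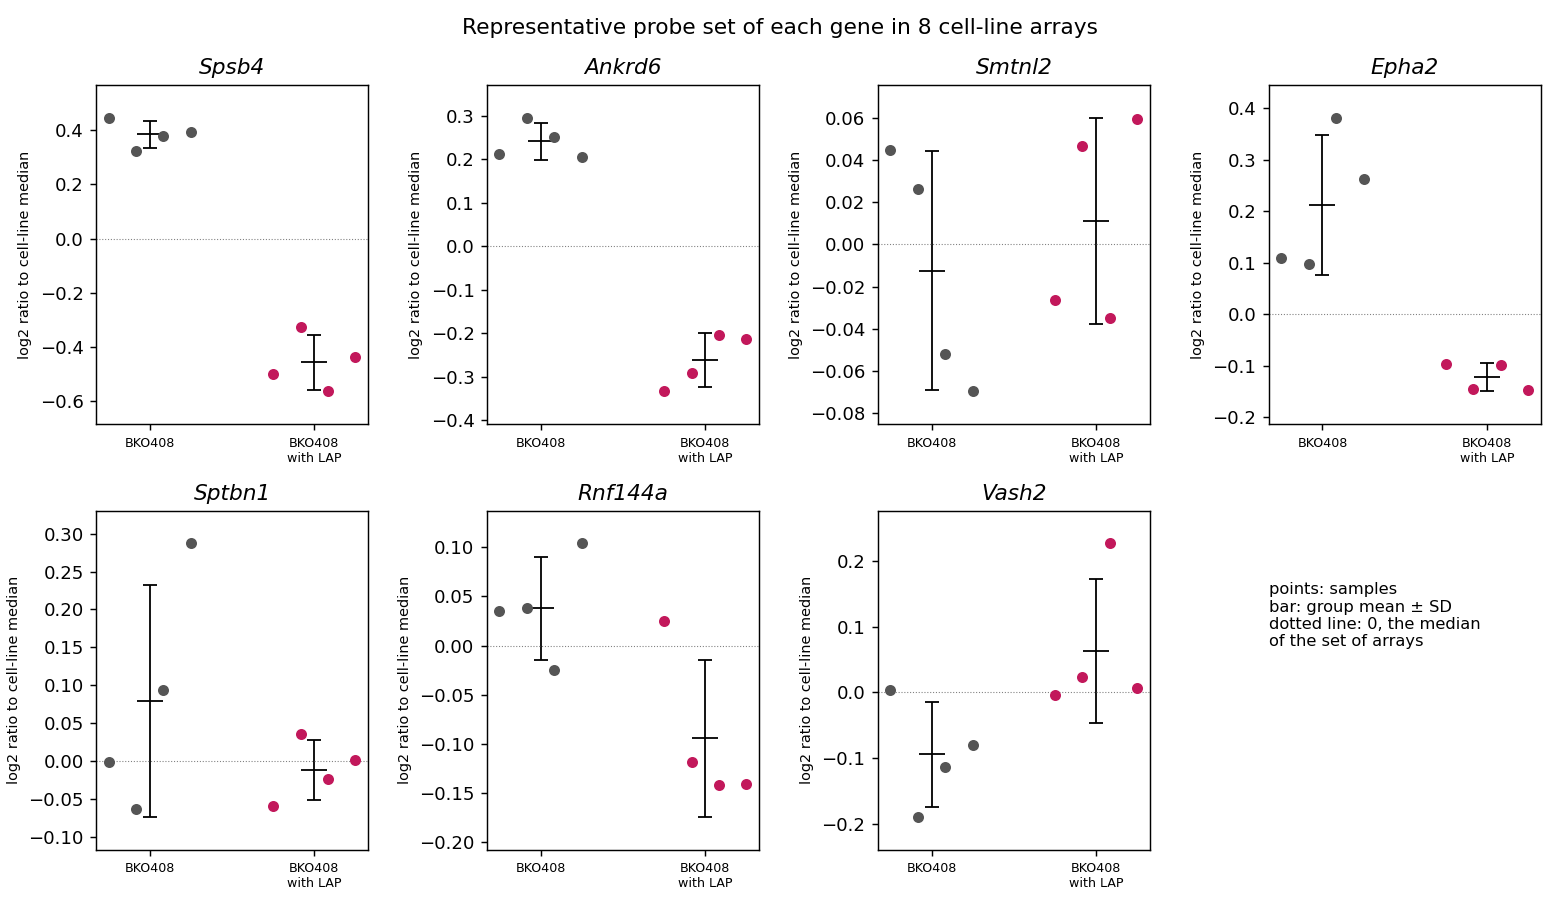
Log2 ratio to the cell-line median (y axis, with a scale of its own in each panel) of the representative probe sets in 4 BKO408 arrays without and 4 with LAP (x axis), 1 point per array and bars for the mean ± SD. The groups lie apart for Spsb4, Ankrd6 and Epha2 and overlap for the other 4 genes, and the scale of Smtnl2 spans only -0.07 to 0.06.

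LAP/Blnk and Blnk tumours both lack Blnk and differ in the LAP transgene. Both groups took part in the choice of the genes, and a choice for high values in either group favours genes that differ between the 2, so nothing is supported with these values. None of the 7 genes passed the test, in a comparison in which 3 of 17097 genes (0.0175%) did and 989 had an unadjusted p below 0.05. Spsb4 was higher in LAP/Blnk tumours by 1.30 ± 0.39 (SE, limma adjusted p = 0.46), Ankrd6 by 1.17 ± 0.73 (0.98) and Smtnl2 by 1.19 ± 0.72 (0.98), with overlapping groups. Without Blnk tumour 2, the low one, the Smtnl2 difference was 0.60 ± 0.54. Rnf144a differed by -1.50 ± 0.43 (limma adjusted p = 0.42) and Vash2 by -1.23 ± 0.27 (0.19), and for these 2 genes every LAP/Blnk tumour lay below every Blnk tumour, as for 460 genes (2.69%) in all, where 5.36% lay apart in either direction. Epha2 differed by -0.12 ± 0.26 and Sptbn1 by -0.03 ± 0.33 (adjusted p = 1.0 for both).

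For Spsb4 the difference with LAP was -0.84 in the cells and 1.30 in the tumours, and for Ankrd6 -0.50 and 1.17. For Rnf144a it was -0.13 and -1.50, and for Vash2 0.16 and -1.23. The tumour values chose the genes, so no test of the gap between cells and tumours is given.

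**Figure D4:**
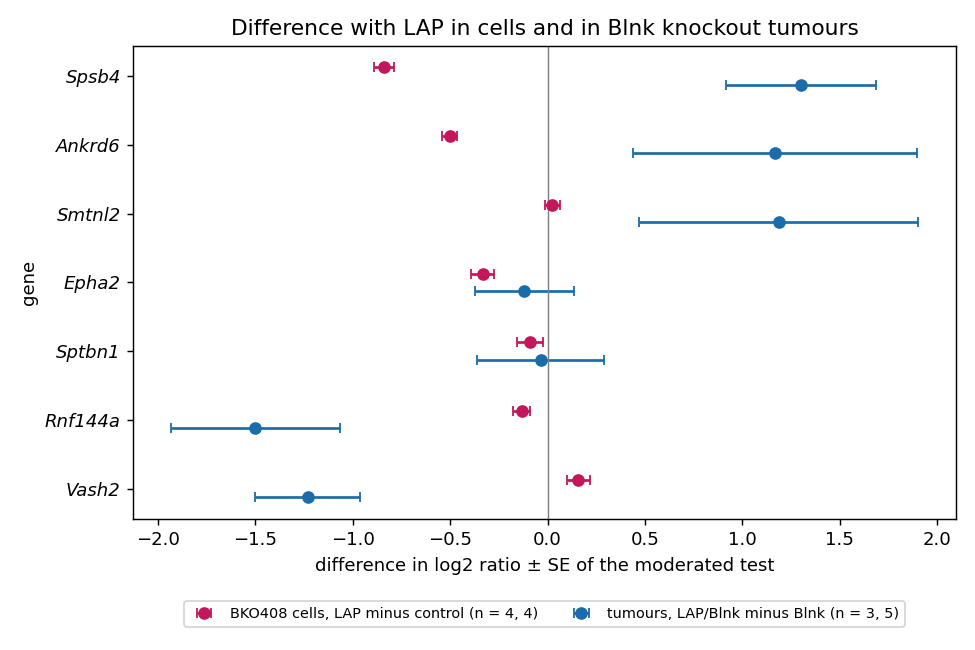
Difference in log2 ratio with LAP (x axis, ± SE of the moderated test) for each gene (y axis), in BKO408 cells (LAP minus control, 4 and 4 arrays) and in tumours (LAP/Blnk minus Blnk, 3 and 5 tumours). Spsb4 lies at -0.84 in cells and at 1.30 in tumours, and Rnf144a and Vash2 lie at -1.50 and -1.23 in tumours and at -0.13 and 0.16 in cells.

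Relatives and partners of the 7 genes were read from fixed lists. In the cells with LAP, Cul5, the cullin that serves SOCS-box proteins such as Spsb4, rose by 0.31 ± 0.03 (SE), and of 13 measured SPSB and Cullin-RING partners 4 rose and 0 fell, the others being Cul2 (0.31), the NEDD8-conjugating enzyme Ube2f (0.25) and the RING protein Rbx1 (0.16). Of 15 genes of the RBR ligase list, which also holds the kinase gene Prkdc, 4 rose and 2 fell. Those that rose were Rnf14 (0.42), Ankib1 (0.32), Arih2 (0.32) and Prkdc (0.10), and those that fell were Arih1 (-0.20) and Rnf31 (-0.19). The tubulin list had 14 measured genes, of tyrosination and its reversal, of glutamylation and of tubulin itself. Among them the tyrosine ligase Ttl (0.27) and the deglutamylase Agtpbp1 (0.49) rose. The tubulin Tuba1a (-0.51), the glutamylase subunit Ttll1 (-0.18) and Svbp (-0.12), the partner of Vash2, fell. Among 19 Eph receptors and ephrins, Epha5 (-0.28) and the ephrin Efna1 (-0.25) fell and none rose. Of 32 Wnt and planar polarity genes 5 fell and none rose, led by the transcription factor Lef1 (-0.37), the dishevelled inhibitor Nkd2 (-0.25) and the receptor Fzd7 (-0.21). Ctnnb1, the β-catenin gene (-0.17), and the planar polarity gene Vangl2 (-0.16) also fell. Of 12 smoothelin and muscle-type actin-binding genes the tropomyosin Tpm1 rose (0.18) and Tpm4 (-0.22) and the calponin Cnn1 (-0.20) fell. Of 17 genes of the spectrin skeleton Epb41l5 (-0.24), the α-spectrin Sptan1 (-0.17), the partner of Sptbn1, and the ankyrin Ank1 (-0.16) fell. All of these passed limma's test at an adjusted p under 0.05, and the list medians lay between -0.06 and 0.05, next to -0.01 over all genes. Over the 7 lists 28 of 122 genes (23.0%) were called, near the 22.3% of all genes.

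In the tumours few of these list genes differed. Between LAP/Blnk and Blnk tumours none of the 7 lists had a gene past the test. Between LAP/Blnk tumours and LAP preB-ALL, where 2.37% of all genes were called (1.59% higher and 0.784% lower), 5 list genes were higher and none lower: Ttll1 by 1.64 ± 0.35 (SE, limma adjusted p = 0.034), the adducin Add3 by 2.50 ± 0.56 (0.038), Epb41l2 by 0.94 ± 0.22 (0.043), and the β-catenin regulators Gsk3b by 0.79 ± 0.16 (0.026) and Apc by 0.89 ± 0.19 (0.034). Under 15 alternative settings 0 to 5 list genes were called here, with 0 without LAP/Blnk tumour 3, 1 without LAP/Blnk tumour 1 and 2 to 3 without any 1 of the other tumours. Apc was also the only list gene called between Blnk tumours and LAP preB-ALL, at 1.04 ± 0.17 (adjusted p = 0.044), where 0.0819% of all genes were. That call held in only 1 of 17 alternative settings, a fit with a variance trend, and ended without any 1 of the 9 tumours. These comparisons share the LAP preB-ALL.

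Among themselves the 7 genes followed each other over the tumours with Pearson r of 0.371 (Vash2 and Ankrd6) to 0.85 (Spsb4 and Epha2). These points share their groups, on which the genes were picked. With each tumour taken as its deviation from its group mean, r lay between -0.212 and 0.547, and the highest pair was Ankrd6 and Smtnl2, which share the high value in LAP B-ALL 4.

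The genes whose ratios were most like those of Spsb4 over the 16 tumours were Atf2, a bZIP transcription factor (r = 0.953), the chromatin protein Hmgb2 (0.925), the GDNF receptor Gfra1 (0.921), Ptar1 (0.92) and the ESCRT gene Vps37c (0.914). For the other genes they were Prkaa2 and Sufu for Smtnl2 (0.931 and 0.92), Zfp445 and Pik3cg for Sptbn1 (0.92 and 0.903), and Mtor and Insl6 for Ankrd6 (0.905 and 0.897). They were Gm34166 and Papola for Epha2 (0.895 and 0.893), D630045J12Rik and Hdac8 for Rnf144a (0.873 and 0.859), and Setd4 and Plppr4 for Vash2 (0.872 and 0.843). Atf2 followed Spsb4 over a narrow range, from -0.24 in LAP B-ALL 3 to 0.30 in LAP/Blnk tumour 3. Of these 17 genes, 5 lie on chromosome 19, as does Blnk: Gfra1, Ptar1, Vps37c, Insl6 and Sufu. Of all genes tested, 3.32% lie there. These 17 genes were found in the same tumours, by likeness to genes picked on the tumour groups. Nothing is therefore read from their count on chromosome 19, and no test was made. The 7 genes themselves lie on chromosomes 1, 4, 9, 11 and 12.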

How the data were processed

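Biotin-labelled RNA of 24 mouse samples was hybridised to an Affymetrix array, per the labels' protocols. The submitters' processing notes name MAS5 alone, with no version. The deposited table holds log ratios whose base is unstated, and they were read as log2. Every probe set has a median of 0 within the 8 cell-line arrays and again within the 16 tumours, so no level or detection call is left. Array medians lay between -0.03 and 0.06, and the number of arrays limits the precision.

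A gene was represented by its most variable probe set, with groups ignored, which gave 17097 genes from the 28898 probe sets with 1 symbol in the platform annotation (551 had several and 15692 none). The tests were those of limma 3.58.1 under R 4.3.3 (lmFit and eBayes, two-sided, no variance trend), adjusted by Benjamini-Hochberg over all genes and called below 0.05. The 8 cell-line arrays and the 16 tumours had a fit each. Other probe sets of the 7 genes came from the same fits over 45037 probe sets. Data of 17097 genes were simulated, with known changes planted in a small part of them. There the fit of the cell lines recovered 100% of changes of 1 log2 unit. The fit of LAP/Blnk against Blnk tumours recovered 67% of changes of 1 and 87% of changes of 2 log2 units. The simulated noise was normal and independent between genes, so these shares do not cover tumours of mixed cell content. The changed genes were drawn at random from all genes, whatever their spread, so the shares are not those for the 7 genes. Many more changes were planted than the 3 genes called between LAP/Blnk and Blnk tumours, which eases the Benjamini-Hochberg adjustment. The 7 genes, the lists and the comparisons were chosen with earlier results of these data known. Genes were named if they were among the 7, if they were among the at most 4 largest called changes of a list in a comparison, or if their ratios were most like those of one of the 7 (the top 5 for Spsb4 and the top 2 for the others). Prkdc, Rnf31, Svbp and Vangl2, beyond those 4, were named after their values were seen. Other normalisation, probe set rules, weights, filters, fits and left-out samples were tried. Filters on low values could not be run because centred values have no level.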

Additional observations from a re-analysis of the deposited data

Results flagged for a closer look

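Within single groups, 8 of 75 sets of replicates had a sample far from the others, where chance gives about 1 in 20. In the tumours, Smtnl2 was at -1.36 in Blnk tumour 2, against 1.13 to 1.92 in the other 4, and at 1.22 in LAP B-ALL 4, against -1.66 to -1.26 in the other 3. Vash2 was at 0.18 in LAP preB-ALL 3, against -0.59 to -0.49 in the others, and Epha2 was at -0.054 in the same tumour, against -0.71 to -0.63. Epha2 was at -0.86 in LAP B-ALL 2, against -0.76 to -0.75. In the cells, Rnf144a was at 0.025 in LAP array 1, against -0.14 to -0.12, and Vash2 at 0.23 in LAP array 3, against -0.0042 to 0.02. The Ankrd6 probe set with the narrowest range was at 0.26 in BKO408 array 4 without LAP, against -0.0093 to 0.03.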

How the results depend on the processing

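No called value of the 7 genes changed its direction. Between LAP/Blnk and Blnk tumours, where none of the 7 was called in the main fit, the difference changed sign for Epha2 (-0.33 to 0.06 over the alternatives) and for Sptbn1 (-0.11 to 0.055). Vash2 was called there in 1 of 17 alternatives, with array weights (-1.39, limma adjusted p = 0.023). Without Blnk tumour 5 its adjusted p was 0.052. In the cells Rnf144a was called in 2 of 17 alternatives, among the more variable genes and without LAP array 1. The falls of Spsb4, Ankrd6 and Epha2 in cells with LAP were called in 16 of 17 alternatives each, the exception being all 24 arrays in 1 fit. Between the cells, 3820 genes were called, 7233 with every probe set tested, 21 with all arrays in the fit and 3080 to 3515 without 1 array. Quantile normalisation turned the split from 1801 higher and 2019 lower to 2003 and 1773. Between LAP/Blnk and Blnk tumours, 3 genes were called, 29 after quantile normalisation, 16 with every probe set, 33 with array weights and 2 to 13 without 1 tumour (8 without LAP/Blnk tumour 1 and 13 without 3). Between LAP/Blnk tumours and LAP preB-ALL, 406 were called, 1194 with every probe set, 262 among the more variable genes, 50 with only these groups and 85 to 304 without 1 tumour. Between Blnk tumours and LAP preB-ALL, 14 were called, 2 after quantile normalisation, 0 with the mean of the probe sets, 46 with every probe set, 24 with array weights, 3 among the more variable genes, 5 with only these groups and 0 to 17 without 1 tumour (0 without LAP preB-ALL 2). With the replicate number as a block, 3427 genes were called in the cells and 0 in each of the 3 tumour comparisons, where the same samples without a block gave 3, 33 and 1. Same-numbered samples did not deviate together in every pair (correlations of -0.12 to 0.38 over the comparisons). The labels do not say what a shared number stands for, so no pairing is assumed, and a shared handling of such samples is not excluded. Which causes lie behind these shifts was not tested. Leaving out 1 sample lowered the calls in the 7 lists in the cells to no fewer than 2 a list. The base of the logarithm, the missing levels and the small groups of tumours with mixed cell content limit all sizes given.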

Other observations

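Among markers of other cell types, 3 of 10 monocyte markers rose in the BKO408 cells with LAP and 0 fell, where 22.3% of all genes were called and 10.5% rose: the chemokine receptor Ccr2 by 2.25 ± 0.18 (SE, limma adjusted p = 2.6e-05), the lysozyme Lyz2 by 1.53 ± 0.03 (2.3e-09) and the Fc receptor Fcgr1 by 0.41 ± 0.06 (0.0014). Of 11 pre-B markers 5 fell and 1 rose, and among those that fell were Dntt, the terminal transferase of V(D)J joining, with a difference of -1.91 ± 0.03 (adjusted p = 1.3e-09), and the recombinase genes Rag1 at -1.32 ± 0.03 (3.6e-09) and Rag2 at -1.19 ± 0.04 (8.0e-08).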
